A study of Rattus norvegicus with 66 samples.

Results

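The comparison described here is that of male rat pups of the group Aro0.5, whose dams ate Aroclor 1254 at a dose of 0.5 mg/kg, with male control pups, on postnatal day (PND) 6. The libraries were taken by their labels, 4 Aro0.5 males and all CONF and CONSC males, together 14 of the 66 libraries of the series. The controls were 9 pups, 4 feeding controls (CONF, soy-free chow alone) and 5 injection controls (CONSC, vehicle injected under the skin of the dam), and the 2 libraries of CONF N2-2y were summed. Aroclor 1254 was mixed into the chow of Long Evans dams from before mating through pregnancy and lactation, so that the pups received it through the placenta and the milk. Tissue was a rectangular piece of a frontal brain slice that held dorsal hippocampus and the cortex lateral to it, dissected from deep-frozen brain. All 13 pups came from different litters. Whole libraries were RNA from this piece, so that fewer cells of a type and less RNA per cell cannot be told apart.

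Aroclor 1254 is a commercial mixture of polychlorinated biphenyls (PCBs). Some PCB congeners bind the aryl hydrocarbon receptor, others act on ryanodine receptors, the calcium release channels of the endoplasmic reticulum, and PCBs lower circulating thyroid hormone in rats. In the first postnatal week hippocampal neurons extend axons and form synapses while thalamic axons are growing into the neocortex. The thalamus lies beneath the hippocampus and the striatum in front of it, so that a frontal piece can take in more or less of either. The mitochondrial genome carries the genes of 13 respiratory chain proteins, and all other proteins of the chain are encoded in the nucleus.

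Total counts were 24689291 to 32005323 in Aro0.5 pups and 10777044 to 34218370 in control pups, the upper value being that of the summed pup. Levels are given as CPM, counts per 1000000 counts of the pup, and a fold change is Aro0.5 over control on the log2 scale. Markers of hippocampus were present in every pup, with a summed level of 472 to 612 CPM in Aro0.5 and 511 to 742 CPM in control males over 16 marker entries, of which 11 passed the filter on low counts and Fibcd1 had no counts. Of the 11, 2 were higher and 0 lower at 0.05 before adjustment, where 9.55% of all genes tested were higher and 8.97% lower, and their median log2 fold change was 0.03. CONSC 8-4y stood apart from the other controls in its tissue markers, as given with the thalamus markers.

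Of 16139 genes tested, 20 (0.124%) were changed in Aro0.5 males at an adjusted p under 0.05 by edgeR's quasi-likelihood test, 13 higher (0.0806%) and 7 lower (0.0434%). A looser threshold, 0.05 before adjustment, was passed by 1541 genes upwards (9.55%) and 1447 downwards (8.97%). The median log2 fold change over all genes was 0.00. All 4 Aro0.5 pups lay above all 9 controls in CPM for 31 genes (0.192%) and below all of them for 216 genes (1.34%). Among the 20, 8 were mitochondrially encoded, 4 were nuclear genes with a symbol of their own, and 8 were entries named only by number or as copies of other genes. Without Aro0.5 94-3y no gene was changed in edgeR and 1748 passed 0.05 before adjustment, without Aro0.5 106-3y 1 gene was, and without Aro0.5 98-8y 2 were. Without CONSC 8-4y 322 genes were changed, all 20 among them, and in DESeq2 with all pups 269 were, with 19 of the 20 among them.

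The mitochondrially encoded genes were 8 of the 20 changed genes. All 13 passed the filter. At an adjusted p under 0.05, 8 rose and 0 fell, beside 0.0806% and 0.0434% of all genes. At 0.05 before adjustment 11 were higher, beside 9.55% of all genes. The median log2 fold change of the 13 was 0.43. They made up 8.34, 9.68, 9.25 and 9.31% of the counts in Aro0.5 pups 105-5y, 106-3y, 94-3y and 98-8y. In the controls this share was 6.31% in the lowest, 7.08% in the median and 8.08% in the highest pup. The groups did not overlap. The mean was 9.15 ± 0.571% in Aro0.5 (SD, n = 4) and 7.07 ± 0.511% in control males (SD, n = 9).

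**Figure D1:**
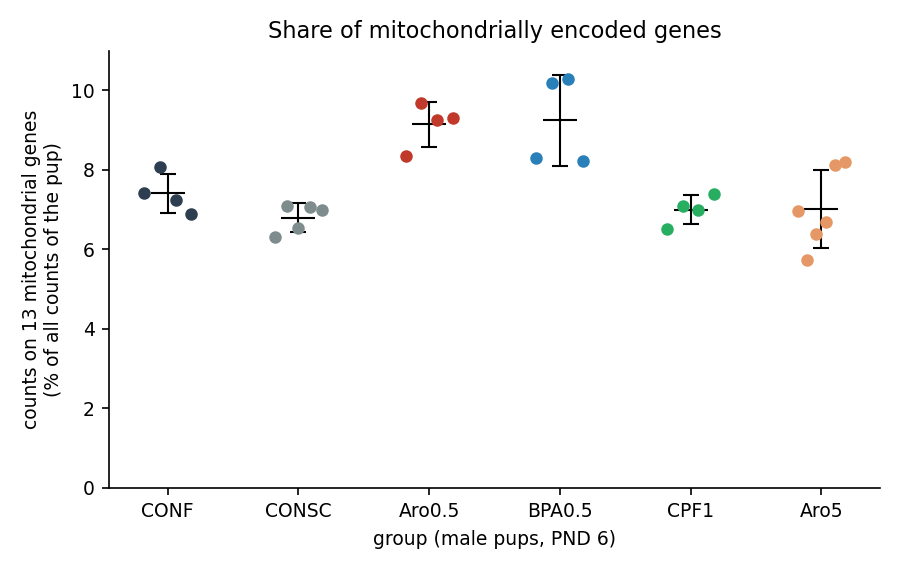
Share of all counts on the 13 mitochondrially encoded genes, in percent, for each male pup (points) of 6 groups, with mean and SD (bars). The 4 Aro0.5 pups lay between 8.34 and 9.68%, above the 9 controls (6.31 to 8.08%).

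ND1, a subunit of complex I, had 8212, 9680, 9129 and 9704 CPM in Aro0.5 pups 105-5y, 106-3y, 94-3y and 98-8y. The 9 controls ranged from 5826 to 8192 CPM with a median of 6597. The lowest Aro0.5 pup was thus just above the highest control, CONF N3-4y. The log2 fold change of ND1 was 0.51 ± 0.09 (SE; adjusted p = 0.0170). COX1, the catalytic subunit of cytochrome c oxidase, had 19251 to 22735 CPM in Aro0.5 and 14000 to 18688 CPM in control males, again without overlap, with a log2 fold change of 0.45 ± 0.08 (adjusted p = 0.0170 by edgeR). ND2, ATP6, COX3, CYTB, ND3 and COX2 rose by 0.48, 0.47, 0.45, 0.44, 0.43 and 0.43 on the log2 scale. They encode subunits of complex I, ATP synthase, cytochrome c oxidase and complex III, so that each of the complexes with mitochondrially encoded parts had a member among the changed genes. For these 8 genes all Aro0.5 pups were above all controls, as for 0.192% of all genes. Of the 5 genes that did not pass the adjusted threshold, ND4, ATP8 and ND4L had log2 fold changes of 0.33, 0.28 and 0.25, ND5 of 0.16, and ND6 of -0.11 ± 0.13 (adjusted p = 0.665). These 5 were named after their values were seen, and ND6 is the gene read from the other strand of the mitochondrial genome.

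The 8 calls depended on the pups in the fit. The study's time window (10.30 to 13.20 h) leaves 6 of the 9 controls. With only its pups 0 of the 13 passed the adjusted threshold. Before adjustment 11 passed 0.05 (9.6% of all genes, either direction), with a median log2 fold change of 0.39. With only CONF controls 0 passed and the median was 0.36, and with only CONSC controls 1 passed and the median was 0.49. Without Aro0.5 106-3y, 94-3y or 98-8y 0 passed, while 11 were higher at 0.05 before adjustment (18.2, 10.8 and 11.4% of all genes, either direction). The medians were 0.39, 0.40 and 0.42. With the counts of every pup thinned to 10644138, 8 passed and the median stayed at 0.43. With the 13 genes left out of totals and tests, an alternative added after seeing the data, 8 other genes were changed, all among the 20. Mitochondrially encoded share stood at 8.23 to 10.3% in the 4 BPA0.5 males, 6.51 to 7.41% in the 4 CPF1 males and 5.74 to 8.20% in the 6 males of the 5 mg/kg Aroclor dose.

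Nuclear genes of oxidative phosphorylation had a smaller median log2 fold change, with single values from -0.74 to 0.62. Of 74 tested, 0 passed the adjusted threshold, 14 were higher and 0 lower at 0.05 before adjustment, 63 had a positive log2 fold change, and the median was 0.10. Atp5b, the catalytic beta subunit of ATP synthase, had 1400, 1411, 1510 and 1498 CPM in Aro0.5 and 1140 to 1400 CPM in control males. Its log2 fold change was 0.23 ± 0.07 (adjusted p = 0.128 by edgeR). Ndufs3 and Ndufa9, subunits of complex I, had values of 0.24 and 0.16. Within the time window 2 of these nuclear genes were higher at 0.05 before adjustment, beside 851 of all 16028 genes, and their median was 0.05. Genes of cytosolic ribosomal proteins (70 tested, 6 higher and 0 lower before adjustment, median 0.07) and of proteasome subunits (38 tested, 4 higher and 0 lower, median 0.08) had medians near that of the nuclear oxidative phosphorylation genes, but 6 of 70 and 4 of 38 are near the 9.55% of all genes that were higher.

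Of the nuclear genes, Dpysl5, Nos1, Vamp2 and Tuba1a passed the adjusted threshold under a symbol of their own. Their promoter windows, 250 bases before to 50 after the start site, are shown since these are the changed nuclear genes with a symbol of their own. They are RefSeq sequences of build GRCr8, read 5′ to 3′ on the strand of the gene, while the counts were made on Rnor_6.0. Capitals mark GCGTG, the core letters of the element bound by the aryl hydrocarbon receptor, or CACGC, the same on the other strand.
Dpysl5, chr6:31379299-31379598, minus strand: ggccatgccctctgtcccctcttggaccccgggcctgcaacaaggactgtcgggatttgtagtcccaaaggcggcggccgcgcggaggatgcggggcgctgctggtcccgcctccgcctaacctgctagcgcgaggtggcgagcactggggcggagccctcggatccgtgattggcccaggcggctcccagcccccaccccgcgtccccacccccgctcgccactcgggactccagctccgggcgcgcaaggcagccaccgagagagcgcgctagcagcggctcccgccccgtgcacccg
Nos1, chr12:44371788-44372087, minus strand: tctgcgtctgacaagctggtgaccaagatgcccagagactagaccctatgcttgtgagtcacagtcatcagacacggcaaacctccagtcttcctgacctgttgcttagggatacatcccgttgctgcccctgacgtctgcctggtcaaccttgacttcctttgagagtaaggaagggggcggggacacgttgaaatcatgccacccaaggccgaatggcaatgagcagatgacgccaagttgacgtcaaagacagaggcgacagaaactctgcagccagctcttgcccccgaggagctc
Vamp2, chr10:54292539-54292838, plus strand: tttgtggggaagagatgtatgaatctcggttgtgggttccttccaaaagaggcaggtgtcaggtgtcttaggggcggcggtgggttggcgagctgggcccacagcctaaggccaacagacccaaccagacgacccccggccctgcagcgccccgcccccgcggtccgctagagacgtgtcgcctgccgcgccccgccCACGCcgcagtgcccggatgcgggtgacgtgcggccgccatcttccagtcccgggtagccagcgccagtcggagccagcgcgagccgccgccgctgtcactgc
Tuba1a, chr7:131995770-131996069, minus strand: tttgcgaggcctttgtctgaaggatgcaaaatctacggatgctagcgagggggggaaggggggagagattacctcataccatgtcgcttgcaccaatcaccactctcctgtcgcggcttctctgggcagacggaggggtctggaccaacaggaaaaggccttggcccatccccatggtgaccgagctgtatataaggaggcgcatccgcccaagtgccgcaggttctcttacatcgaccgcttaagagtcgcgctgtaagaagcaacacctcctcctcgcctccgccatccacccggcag
The Vamp2 window held 1 match, which starts 53 bases before the start site, and the other windows held 0. Of all 33469 windows of this length, 29.7% held at least 1. A match is a run of letters and not a site, and its absence says only that these letters are not in the window.

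Dpysl5 (also CRMP5), a collapsin response mediator of growing axons, had 18.6, 18.7, 15.7 and 20.2 CPM in Aro0.5 pups 105-5y, 106-3y, 94-3y and 98-8y and 23.6 to 35.4 CPM (median 29.3) in controls. Every Aro0.5 pup was below every control. It fell by 0.60 ± 0.11 on the log2 scale (SE; adjusted p = 0.0194 by edgeR). Nos1, the neuronal nitric oxide synthase, which marks a class of interneurons, had 10.3, 12.6, 8.02 and 9.22 CPM in the same Aro0.5 pups and 15.0 to 23.7 CPM (median 17.5) in controls. The groups did not overlap here either. It fell by 0.78 ± 0.14 on the log2 scale (adjusted p = 0.0230). Vamp2, the synaptobrevin of synaptic vesicles, had 1180, 1332, 1538 and 1518 CPM in Aro0.5 and 974 to 1231 CPM (median 1008) in control males. Aro0.5 105-5y was below the highest control, CONSC 8-4y. Vamp2 rose by 0.47 ± 0.09 (adjusted p = 0.0258 by edgeR). Tuba1a, an alpha tubulin of growing neurons, had 5099, 5977, 5695 and 4965 CPM in Aro0.5 and 3894 to 4825 CPM (median 4309) in control males, without overlap. It rose by 0.40 ± 0.08 (adjusted p = 0.0461 by edgeR), but its sequence is close to that of other alpha tubulin genes and reads may have been shared between them. With counts thinned to the lowest total, Dpysl5 and Tuba1a did not pass the adjusted threshold (0.0516 and 0.0549 by edgeR), while Nos1 and Vamp2 did. With 1 library of CONF N2-2y alone, Dpysl5, Nos1 and Tuba1a did not pass (0.0598, 0.0641 and 0.0725 by edgeR), while Vamp2 did.

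**Figure D2:**
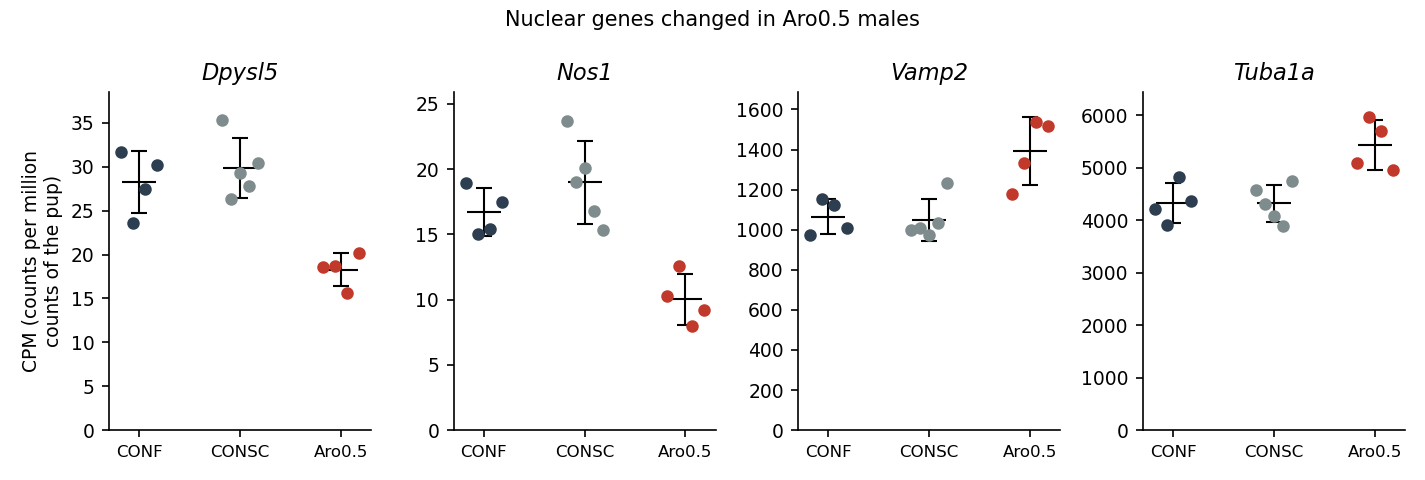
CPM of Dpysl5, Nos1, Vamp2 and Tuba1a in each CONF, CONSC and Aro0.5 male (points), with mean and SD (bars). Dpysl5 and Nos1 lay below every control in all 4 Aro0.5 pups, Tuba1a above every control, and Vamp2 overlapped the controls in 1 pup.

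The other 8 changed entries are named only by number or as pseudogenes. For those that are copies of other genes, reads may have been shared with the parent gene, and their values are uncertain. RefSeq names LOC100912302 as Sox1, a transcription factor of neural precursors. It had 4 to 14 counts in Aro0.5 pups (0.152 to 0.500 CPM) and 7 to 43 in control pups (0.619 to 1.26 CPM), and fell by 1.45 ± 0.28 on the log2 scale (adjusted p = 0.0284 by edgeR). LOC100361457, which RefSeq lists as the actin copy Actg1l1, had 5.59 to 11.6 CPM against 14.0 to 19.7 CPM and fell by 0.94 on the log2 scale. LOC685894 (Hnrnpa3l1, a pseudogene) and RGD1566093 (Fusl1) had 30 to 60 counts per Aro0.5 pup and fell by 0.85 and 0.86 on the log2 scale. LOC103692113, which had no match in RefSeq, fell by 1.01 and LOC100362275, likewise without a match, rose by 0.74. RGD1561381 (Mgst3l1) rose by 0.69 and Hmgb1-ps4, a pseudogene of Hmgb1, by 0.63. The adjusted p of these 8 lay between 0.0170 and 0.0415.

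Among genes with a mean of at least 5 CPM and a symbol of their own (entries named only by number and pseudogenes left out), the 10 with the smallest p in the lower direction were Dpysl5, Nos1 and 8 that did not pass the adjusted threshold. Fnbp1l, which bends membrane during actin assembly, had 80.6 to 123 CPM in Aro0.5 and 133 to 206 CPM in control males, without overlap, and a log2 fold change of -0.59 (adjusted p = 0.0937). Ahi1, a protein of the primary cilium, had 31.1 to 39.9 CPM against 42.2 to 75.7 CPM and a value of -0.54. Smarcc1, a core subunit of the BAF chromatin remodelling complex, had 46.0 to 59.4 CPM against 60.6 to 81.7 CPM and a value of -0.35. Pnmal2 and Ntn4, a netrin, also lay below every control, with log2 fold changes of -0.36 and -0.41. Abl1, a tyrosine kinase, Gipr, the receptor of a gut hormone, and Hnrnpm, a splicing factor, had values of -0.68, -0.97 and -0.32 with overlapping groups. The adjusted p of these 8 genes ranged from 0.0937 to 0.113 in edgeR.

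Markers of the thalamus had positive log2 fold changes in 16 of 19 cases, and 0 passed the adjusted threshold. Of the 19, 12 were higher and 0 lower at 0.05 before adjustment, beside 9.55% and 8.97% of all genes, and the median log2 fold change was 0.49. Their summed level was 1692, 1211, 1890 and 1901 CPM in Aro0.5 pups 105-5y, 106-3y, 94-3y and 98-8y. It was 917 to 2004 CPM in controls with a median of 1114. The control at 2004 CPM was CONSC 8-4y, and the next highest control, CONF N3-4y, had 1576 CPM. Aro0.5 106-3y lay within the range of the other controls, and the remaining 3 Aro0.5 pups lay above every control but CONSC 8-4y.

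Tcf7l2, a transcription factor of the Wnt pathway that is high in thalamic neurons, had 552, 357, 632 and 587 CPM in Aro0.5 pups 105-5y, 106-3y, 94-3y and 98-8y. Controls ranged from 216 to 641 CPM with a median of 297, and CONSC 8-4y was the highest. The log2 fold change was 0.68 ± 0.28 (adjusted p = 0.210). Lef1, its relative, had 37.2 to 65.7 CPM in Aro0.5 and 17.4 to 65.5 CPM in control males and a log2 fold change of 0.91. Slc6a4, the serotonin transporter, which thalamic relay neurons express for a time after birth, had 17.3 to 36.8 CPM against 1.58 to 36.3 CPM and a value of 1.50. Slc17a6, the vesicular glutamate transporter of thalamic neurons, had a value of 0.65. Synpo2, Ntng1, Rora, Rgs16, Lhx9, Plekhg1, Ramp3 and Vav3 followed with 0.99, 0.74, 0.58, 0.55, 0.53, 0.49, 0.46 and 0.39. Gbx2, a homeobox gene of the developing thalamus, had 0.44 and did not pass 0.05 before adjustment. Cacna1g, Foxp2, Zic1, Prkcd, Zic4 and Tnnt1 had values between -0.13 and 0.10. Adjusted p values over the list were 0.128 or more in edgeR.

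Neocortical markers had negative log2 fold changes in 16 of 18 cases. Of the 18 tested, 1 was higher and 8 were lower at 0.05 before adjustment, beside 9.55% and 8.97% of all genes, 0 passed the adjusted threshold, and the median log2 fold change was -0.42. Their summed level was 1171, 1683, 1185 and 1027 CPM in Aro0.5 pups 105-5y, 106-3y, 94-3y and 98-8y and 1310 to 2149 CPM in controls (median 1683). CONSC 8-4y was the lowest control. Tbr1, a transcription factor of deep layer neurons, had 5.61, 6.68, 4.37 and 5.03 CPM in Aro0.5 and 7.28 to 16.0 CPM in control males, without overlap, and a log2 fold change of -0.88 ± 0.22 (adjusted p = 0.115). Etv1, a gene of layer 5, also lay below every control, with a value of -0.42. Syt6, Mef2c, Rprm, Tle4 and Unc5d were at -0.86, -0.75, -0.55, -0.52 and -0.41. Crym, a thyroid hormone binding protein, went the other way with 0.53. Inhba, Fezf2, Ctgf, Rasgrf2, Cux2, Cplx3, Lmo4, Plxnd1 and Nr4a2, which did not pass 0.05 before adjustment, ranged from -0.55 to 0.16.

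Striatal markers had negative values throughout. Of 12 tested, 0 were higher and 10 lower at 0.05 before adjustment (all genes, 9.55% and 8.97%), 0 passed the adjusted threshold, and the median was -0.81. The summed level was 598, 448, 339 and 240 CPM in Aro0.5 pups 105-5y, 106-3y, 94-3y and 98-8y and 289 to 1083 CPM in controls, with CONSC 8-4y at 289 CPM and the next lowest control at 516 CPM. Pde10a, a phosphodiesterase of striatal projection neurons, had a log2 fold change of -1.01, and Foxp1 one of -0.56. The habenula, which adjoins the thalamus, had 4 of its 5 markers tested, of which 2 were higher, with a summed level of 9.72 to 20.5 CPM in Aro0.5 and 4.87 to 23.9 CPM in control males. Hypothalamic markers were low, 4.72 to 12.3 CPM summed in Aro0.5 and 3.49 to 14.1 CPM in control males over 10 entries.

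**Figure D3:**
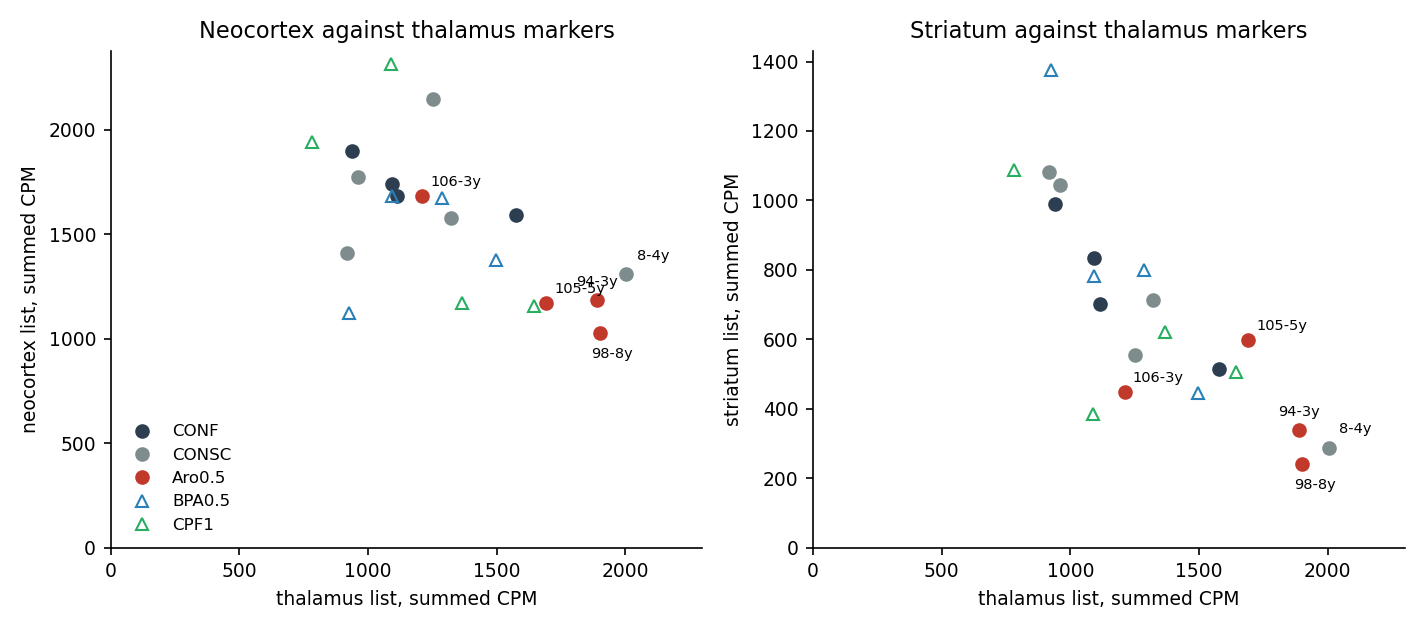
Summed CPM of neocortical (left) and striatal (right) markers against that of thalamic markers, for each male pup of 5 groups. Aro0.5 105-5y, 94-3y and 98-8y and control CONSC 8-4y lay at 1692 to 2004 CPM for the thalamus list, with 1027 to 1310 CPM of neocortical markers.

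**Figure D4:**
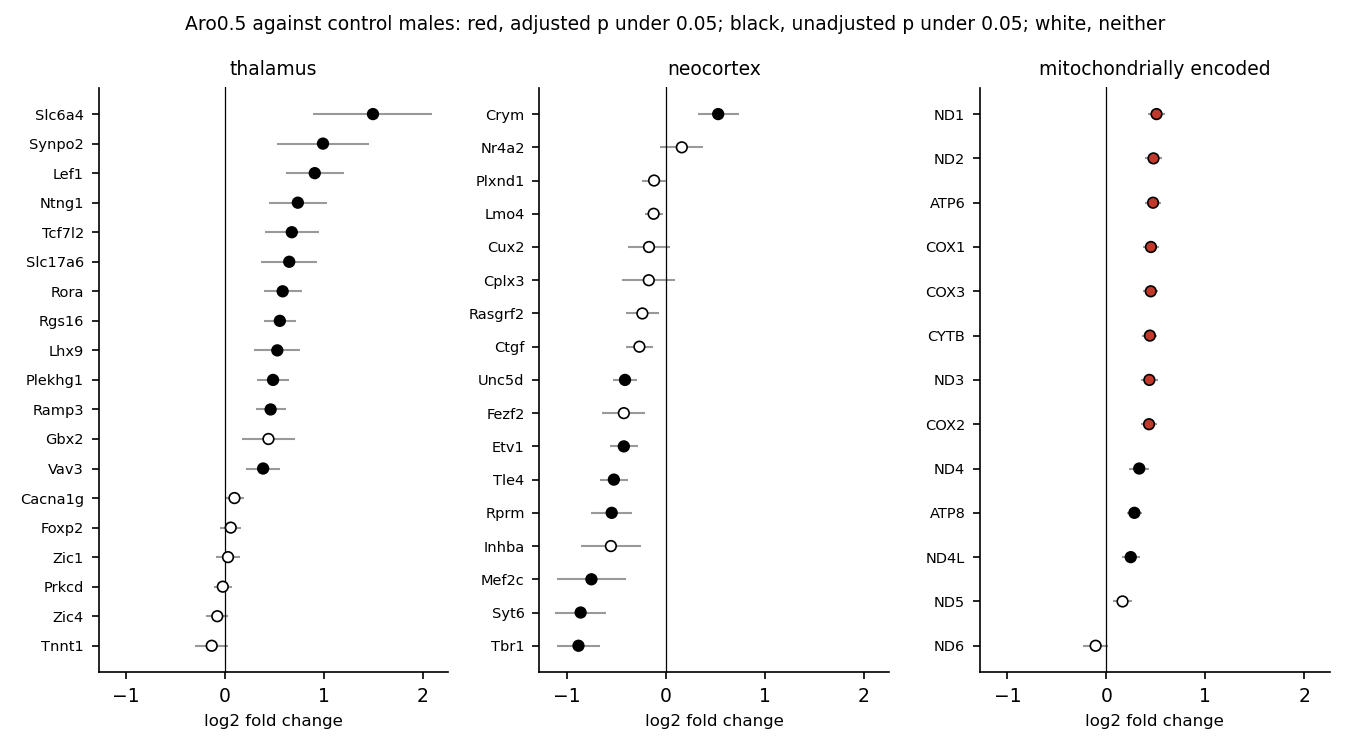
Log2 fold change of Aro0.5 against control males with its SE (bars) for the genes named in the text of 3 lists, thalamus, neocortex and mitochondrially encoded. Colour gives the threshold passed, and 8 mitochondrially encoded genes and no marker of thalamus or neocortex passed the adjusted one.

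The tissue markers were then taken into the fit. With the mean log2 CPM of the thalamus list as a covariate 0 genes were changed, and the share at 0.05 before adjustment went from 18.5% to 6.16% of all genes. With the neocortex list 0 were changed and the share was 5.17%, and with both lists 0 and 5.21%. In edgeR without covariates 2988 genes had passed 0.05 before adjustment. With the thalamus level as covariate 801 of these still passed in the same direction and their median log2 fold change was 72.7% of its size before. With both levels 635 passed and the median was 56.8%. The genes were chosen by the fit without covariates, so that some loss of size comes with the choice. The thalamus level also moved with the treatment, so that the part of each in these genes cannot be told apart.

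For the 20 changed genes, with both covariates the log2 fold changes were at a median of 95.4% of the earlier size (67.9 to 118%), all 20 kept their sign and all 20 passed 0.05 before adjustment, while the SE grew to a median of 114%. Nos1 had the lowest size, 67.9%, going from -0.78 to -0.53. Vamp2, Tuba1a and Dpysl5 were at 81.7, 94.9 and 99.6%. With both covariates the adjusted p of the 20 lay between 0.0658 and 0.688 in edgeR. For the 8 mitochondrially encoded genes the median was 95.4%, and for the other 12 it was 95.9%. With the thalamus level alone these medians were 103 and 97.7%. With the neocortex level alone they were 90.4 and 91.5%, and the adjusted p of the 20 lay between 0.137 and 0.612 in edgeR. Among marker genes Tcf7l2 went from 0.68 to -0.04 with both covariates, which follows from its own place in one of them. The striatum list, which had no part in either covariate, went from a median of -0.81 to -0.26.

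**Figure D5:**
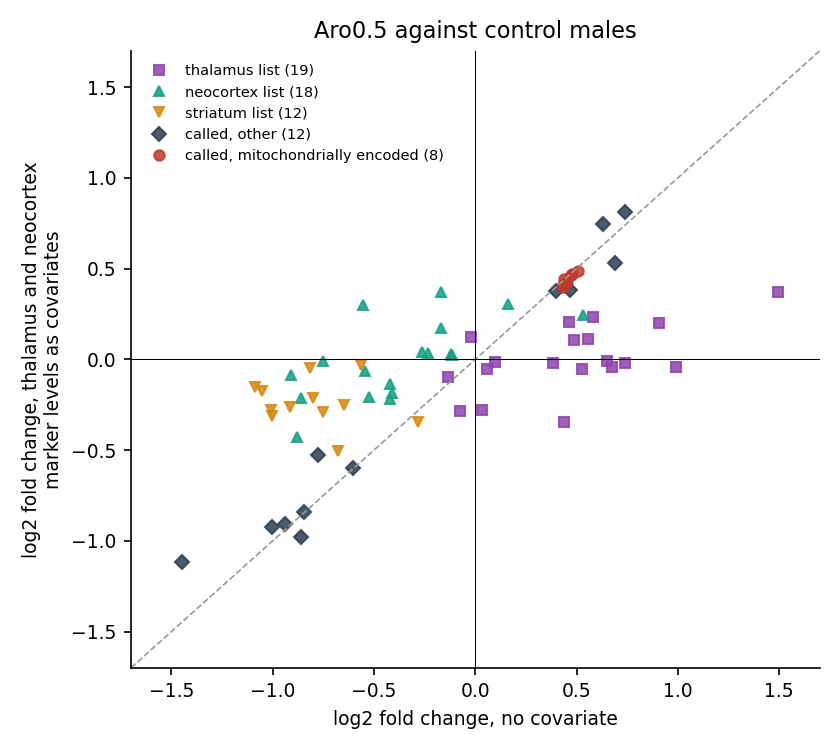
Log2 fold change of Aro0.5 against control males without covariates (x axis) and with the thalamus and neocortex marker levels as covariates (y axis), for the 20 changed genes and 3 marker lists. The dashed line marks equal size. The changed genes had 67.9 to 118% of their size without covariates, and the markers lay between -0.51 and 0.37 on the y axis.

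CONSC 8-4y was the control nearest to the Aro0.5 side more often than any other. It was the highest control for 646 of the 1541 genes that passed 0.05 before adjustment upwards (41.9%), and for 11.2% of all genes. It was the lowest control for 536 of the 1447 genes that passed downwards (37.0%), and for 16.3% of all genes. CONF N4-7y came next in both directions. It was the highest control for 250 of the genes that passed upwards (16.2%, beside 13.1% of all genes). Downwards it was the lowest control for 406 (28.1%, beside 15.1% of all genes). Without CONSC 8-4y, 13 of the 19 thalamic markers were higher before adjustment and 3 passed the adjusted threshold. Of the 18 neocortical markers 9 were lower and 4 passed, and the medians were 0.57 and -0.43. Of all 16119 genes in that fit, 1839 were higher and 1716 lower before adjustment. The adjusted threshold was passed by 219 upwards and 103 downwards. Without Aro0.5 94-3y, 5 thalamic markers were higher and 6 neocortical ones lower before adjustment, with medians of 0.45 and -0.43. Of all 16212 genes in that fit, 840 were higher and 908 lower. With the pups of the time window, 5 thalamic markers were higher and 6 neocortical ones lower, with medians of 0.49 and -0.38. Of all 16028 genes in that fit, 851 were higher and 688 lower.

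Markers of non-neuronal cell types had medians between -0.51 (choroid plexus) and 0.14 (microglia), and 0 passed the adjusted threshold. Astrocyte genes numbered 12, of which 4 were higher and 0 lower at 0.05 before adjustment (beside 9.55% and 8.97% of all genes for this and the lists that follow), with a median of 0.12, and Aldoc, S100b and Aldh1l1 had log2 fold changes of 0.31, 0.33 and 0.22. None of the 13 microglial markers passed, with a median of 0.14 and summed levels of 156 to 223 CPM in Aro0.5 and 124 to 218 CPM in control males. Of 17 oligodendrocyte lineage genes 1 was higher, Mobp, a myelin protein, for which Aro0.5 98-8y had 7.56 CPM and the other Aro0.5 pups 0.0357 to 0.486 CPM. Its log2 fold change of 2.53 turned to -0.55 without that pup. Of 9 choroid plexus markers 0 were higher and 5 lower before adjustment, with a median of -0.51, and Kl and Clic6 had -0.92 and -0.85. Their summed level was 877 to 3201 CPM in Aro0.5 and 1319 to 4027 CPM in control males, with Aro0.5 94-3y and CONSC 8-4y the lowest of their groups. Endothelial and erythrocyte markers had medians of 0.06 and -0.03.

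Of 11 interneuron genes tested, 3 were higher and 3 lower before adjustment, beside 9.55% and 8.97% of all genes, and Nos1 alone passed the adjusted threshold. Gad2, a GABA synthesising enzyme, had 33.5, 23.9, 24.5 and 29.1 CPM in Aro0.5 and 33.9 to 65.2 CPM in control males, without overlap, and a log2 fold change of -0.67 ± 0.19 (adjusted p = 0.124). Calb2 and Cck, calretinin and cholecystokinin, had 0.52 and 0.53. CONSC 8-4y was the highest control for both. GABA-A receptor subunits had 0 higher and 7 lower of 15, with a median of -0.31, and Gabra3, Gabrb2 and Gabrg3 were at -0.26, -0.36 and -0.76. Within the list 0 passed the adjusted threshold.

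Of the pathways on which PCBs are known to act, 0 genes passed the adjusted threshold, and the counts at 0.05 before adjustment stand beside 9.55% of all genes higher and 8.97% lower. Of 8 tested genes of the aryl hydrocarbon receptor pathway 0 passed 0.05 before adjustment and the median was -0.01. Ahr, Arnt and Arnt2, the receptor and its partners, had log2 fold changes of -0.36 ± 0.40, -0.07 ± 0.07 and -0.10 ± 0.06. Nqo1, a target of the receptor, had 0.10 ± 0.10. Of 15 genes of the thyroid hormone system 2 were higher and 2 lower, with a median of -0.15. Thrsp, a thyroid hormone responsive gene, had 1.93, 1.89, 3.56 and 5.25 CPM in Aro0.5 and 1.46 to 2.28 CPM in control males and a value of 0.85. Dio3, the enzyme that inactivates thyroid hormone, had 3 to 8 counts in Aro0.5 and 1 to 53 in control pups and a value of -1.60 ± 0.64. Of 19 genes of intracellular calcium release 3 were higher and 3 lower with a median of 0.01, among them Ryr3, a ryanodine receptor, at -0.26 ± 0.11, Stim2 at -0.22 and Orai2 at 0.28. Of 13 genes of the Nrf2 antioxidant response 3 were higher, Gsr, Me1 and Srxn1, with 0.18, 0.28 and 0.38.

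The genes that the study followed were described apart, 18 in all, of which 1 was higher and 8 lower at 0.05 before adjustment, against 9.55% and 8.97% of all genes, and 0 passed the adjusted threshold, with a median of -0.38. Efnb2 and Erbb4, a guidance ligand and a neuregulin receptor, had log2 fold changes of -0.83 and -0.91. Sox6 and Sox11, HMG box transcription factors, had -0.58 and -0.69, Pou3f3 and Pou3f2, POU domain factors, both had -0.44, and Gli3, a factor of hedgehog signalling, had -0.68. Tcf7l2 was the one that was higher. These genes were chosen by the study on samples of this series, and their direction is no independent evidence. In males of the higher Aroclor dose the study reported Efnb2, Erbb4, Sox6, Sox11, Pou3f3, Pou3f2 and Gli3 as higher, the direction opposite to that here. Tcf7l2 was higher there too. By real time RT PCR on other samples the study found no rise of Sox6 and Sox11 at the low Aroclor dose. Of 30 genes of Wnt signalling 8 were higher and 2 lower, against the same shares, with a median of 0.09, among them the receptor Fzd10 (0.74), the ligands Wnt4 and Wnt3 (0.80 and 0.63), Lef1 and Tcf7l2. CONSC 8-4y was the highest control for Fzd10, Wnt4, Wnt3 and Lef1, with 26.7, 8.10, 12.4 and 65.5 CPM.

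Of 20 genes of the presynaptic terminal, 8 were higher and 3 lower before adjustment and Vamp2 passed the adjusted threshold, with a median of 0.16. Syn1, a synapsin, had 0.25, while Syn3, another synapsin, had -0.56 and lay below every control. Of 17 postsynaptic scaffold genes 1 was higher and 3 lower, with Dlg1 at -0.47 and Homer1 at -0.38. Of 15 ionotropic glutamate receptor subunits 2 were higher and 2 lower. Of 78 potassium channel genes 11 were higher and 11 lower, and of 68 axon guidance genes 7 were higher and 11 lower, beside 9.55% of all genes higher and 8.97% lower. Among the latter was Sema3a, a secreted semaphorin, at -0.70. Cacng7, an auxiliary subunit of calcium channels and AMPA receptors, lay above every control with 141 to 161 CPM against 114 to 138 CPM and a value of 0.34 (adjusted p = 0.115).

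Families of nuclear RNA and chromatin proteins had small negative medians, and their counts stand beside 9.55% of all genes higher and 8.97% lower. Of 29 Hnrnp and Srsf splicing factors 0 were higher and 6 lower before adjustment, 27 had a negative log2 fold change, and the median was -0.12. Hnrnpr had 13.4, 10.8, 10.3 and 8.94 CPM in Aro0.5 and 14.5 to 24.3 CPM in control males, and a value of -0.60 (adjusted p = 0.115). Hnrnpul2 had 85.5 to 95.8 CPM against 105 to 118 CPM and a value of -0.19. Of 40 histone lysine methyltransferases and demethylases 3 were higher and 9 lower, with a median of -0.11, and Ehmt1, a histone H3 methyltransferase, had -0.41. Of 23 genes of dividing cells 0 were higher and 4 lower, with Kif11, a spindle motor, at -0.37. Immediate early genes had 0 higher and 2 lower of 16, Homer1 and Npas4, and a median of -0.20. Among clustered protocadherins 13 of 48 were higher and 3 lower, but Pcdhga11, Pcdhga9 and Pcdhga5 had the same log2 fold change of 0.18, and genes of this cluster share their last exons, so that their counts are not separate measurements.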

How the data were processed

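RNA-seq was done on poly-A selected RNA from hippocampus pieces of PND 6 pups. The authors aligned the reads with STAR to Rnor_6.0, counted them per gene with featureCounts and deposited raw counts per library. The submitters' notes also name kallisto. Versions, and whether counting used the strand, are not given in the sources used here. The labels call the CONSC vehicle saline and the methods name another vehicle. From the deposited counts, 21 low-dose males (4 Aro0.5, 4 BPA0.5, 4 CPF1 and 9 controls) were fitted together in edgeR 4.0.16 (R 4.3.3) with TMM normalization, a filterByExpr filter on the groups and its quasi-likelihood test, with Benjamini-Hochberg adjusted p over the 16139 genes tested and a threshold of 0.05. SE is the size of the log2 fold change divided by the square root of F. The code was tested on simulated data. The counts of the 2 libraries of CONF N2-2y were summed, since their labels give 1 pup, although they differed by more than sampling noise (chi-square per gene 35.1). This was above every pair of different Aro0.5 pups (at most 32.7) and of different CONSC pups (at most 28.0). Among pairs of different CONF pups the highest value was 42.8. Where several entries share a symbol, the one with the most counts was used. RefSeq (GRCr8) held 28336 of 37777 entries by gene ID. Members, lists and tests were chosen with earlier results of these data known. Named were all changed genes, the 10 higher and 10 lower genes with the smallest p and at least 5 CPM (entries named only by number and pseudogenes left out), all thalamus and neocortex markers, up to 4 genes of each other list, and the genes the study followed. Of these, 4 genes are not reported here. Alternatives were other filters, DESeq2 1.42.0, its size factors, other control sets, the time window, thinned counts, marker levels as covariates, and each pup left out. Figures were drawn with matplotlib 3.10.9.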

Additional observations from a re-analysis of the deposited data

Results flagged for a closer look

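Of 320 groups of values (117 named genes, 42 lists and the mitochondrially encoded share, in the 4 Aro0.5 and the 9 control males), 17 had a highest or lowest pup whose gap to the next pup, as a share of the group's range, was above Dixon's 95% critical value for 4 or 9 pups. By that choice of critical value chance gives about 1 in 20. Among controls, CONSC 8-4y stood above the other pups for Fzd10 (26.7 CPM, next 18.7), Rgs16 (37.5, next 27.8), Wnt4 (8.10, next 5.72), Lef1 (65.5, next 39.4), Wnt3 (12.4, next 8.70), Cck (68.4, next 45.0), Slc6a4 (36.3, next 15.5), Synpo2 (22.9, next 11.1) and Zic1 (112, next 88.7). Of these genes Rgs16, Lef1, Slc6a4, Synpo2 and Zic1 belong to the thalamus list. CONSC 10-2y was highest for the aryl hydrocarbon receptor pathway (482 CPM summed, next 443), and CONF N2-2y for Ahi1 (75.7 CPM, next 58.2). CONF N3-4y was lowest for the summed clustered protocadherins (13210 CPM, next 13641) and the summed postsynaptic scaffold genes (3198 CPM, next 3448).

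Among Aro0.5 pups, 106-3y was the highest for LOC100362275 (12.8 CPM, next 9.75) and the lowest for Lhx9 (65.9 CPM, next 92.9). Aro0.5 98-8y was the highest for Mobp (7.56 CPM, next 0.486) and Cck (78.9 CPM, next 49.3). The value of Lhx9 in 106-3y stands beside the lowest thalamus list level among Aro0.5 pups (1211 CPM), and the part of that level in it was not tested.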

How the results depend on the processing

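The 20 changed genes (13 higher, 7 lower) kept their sign under every alternative in which they were tested, but their number moved. It was 19 with genes of at least 1 count, 17 with at least 10 counts in every pup, 20 with DESeq2's size factors and 25 with only Aro0.5 and control males in the fit. DESeq2 gave 269 (158 higher, 111 lower). The time window gave 0 (0 and 0, with 1539 at 0.05 before adjustment), only CONF controls 1 (0 and 1), only CONSC controls 2 (2 and 0), 1 library of CONF N2-2y alone 13 (9 and 4), and thinned counts 14 (12 and 2). The gene called with only CONF controls, whose dams like those of Aro0.5 had no injection, was not among the 20. With CONF alone the adjusted p of the 20 lay between 0.200 and 0.325 by edgeR. All 20 passed 0.05 before adjustment there, beside 12.2% of all genes. Of the 2 genes called with only CONSC controls, 1 was among the 20. The thalamus level, the neocortex level and both as covariates each gave 0 (0 and 0, with 994, 835 and 841 before adjustment). Alternatives added after seeing the data were the striatum level as covariate with 2 (0 and 2), mitochondrially encoded genes left out with 8 (2 and 6), and Aro0.5 94-3y and CONSC 8-4y left out together with 0 (0 and 0, with 2248 before adjustment). Leaving out single pups gave between 0 and 322 changed genes, between 0 and 219 higher and between 0 and 103 lower, with the fewest without Aro0.5 94-3y and the most without CONSC 8-4y. Leaving out a pup or a control group also leaves fewer samples, and the cause of the other shifts was not tested.

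Of the named genes that had passed 0.05 before adjustment with all pups and no covariate, these turned their sign, in log2 fold change. Mobp ranged from -0.55 without Aro0.5 98-8y to 2.91 without Aro0.5 106-3y. With the thalamus level as covariate, Ntng1 went to -0.0264, Tcf7l2 to -0.048, Slc17a6 to -0.057, Lhx9 to -0.066, Vav3 to -0.022 and Synpo2 to -0.15. With both levels, Ntng1 went to -0.018, Tcf7l2 to -0.043, Slc17a6 to -0.011, Lhx9 to -0.056, Vav3 to -0.020, Synpo2 to -0.043 and Me1 to -0.00925. Markers that had not passed 0.05 also turned with both levels, some by more. Among them Gbx2 went from 0.44 to -0.35, Inhba from -0.55 to 0.30 and Cplx3 from -0.17 to 0.37. With the neocortex level, Mef2c went to 0.042. With the striatum level, Dio3 went to 0.00035. Apart from Me1 and Dio3, the genes named for the covariates are members of the list that made the covariate.

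No paired analysis was possible because every pup of the fit came from its own litter. The Aro0.5 libraries were deeper than all single control libraries. P values measure the spread between these pups.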
